A study of Arabidopsis thaliana with 28 samples.

Results

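The regions described here are the stretches of Arabidopsis chromatin that were called as acetylated by CUT&Tag and by neither of the reference ChIP experiments. They are the domains of CUT&Tag replicate 1 on chromosomes 1 to 5 that overlapped a domain of CUT&Tag replicate 2 by at least 1 bp and no domain of the 2 PHILO libraries labelled 10M or of the 2 eChIP libraries. By this rule, 864 CUT&Tag-only domains were chosen by their calls in these 6 lists, of 10756 CUT&Tag replicate 1 domains on these chromosomes and of 370373 domains in all 28 lists. They made up 8.03% of the replicate 1 domains and 3.55% of their length, 962.8 kb of 27122.4 kb. Another 9763 replicate 1 domains overlapped a domain of those ChIP lists and are called shared below. The remaining 129 had neither a replicate 2 nor a ChIP partner.

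The libraries map acetylation of lysine 9 of histone H3 (H3K9ac) in whole 10-day-old seedlings of the wild-type accession Col-0, grown in long days and left untreated. The 28 libraries form 14 groups of 2 replicates. CUT&Tag was done on nuclei bound to beads, where a protein A/G-tethered Tn5 transposase cuts and tags the DNA next to the antibody. eChIP and PHILO are ChIP procedures on formaldehyde-fixed and sonicated chromatin, PHILO being the one made for many small samples, and all groups used the same antibody. The PHILO groups were 1 mg of tissue, 20K, 100K and 500K nuclei, a depth series (labels 0.5M, 1M, 2M, 5M, 10M), and a series of 10, 12 and 14 PCR cycles. The study calls its replicates biological and its depth and cycle samples independently processed, while the labels name no plants or cultures, so a p-value covers the spread between these libraries. Method and chromatin preparation differ together between CUT&Tag and ChIP and cannot be told apart.

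Histone acetylation loosens the hold of histones on DNA and offers a docking site for bromodomain proteins. In plants, as in animals, H3K9ac is typically found over the first nucleosomes of genes in use, just downstream of the transcription start, and is set by acetyltransferases such as GCN5. Small nuclear RNA (snRNA) genes, which supply the RNA of the spliceosome, have a plant-specific promoter with an upstream sequence element followed by a TATA box. The spacing of both parts differs between snRNA genes read by RNA polymerase II (U1, U2, U4 and U5) and those read by RNA polymerase III (U6).

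The 12 sequences printed here show the DNA under the domains on which the gene classes below turn. The first set is 100 bases around the 9 letters CCCACATCG, the core of that upstream element, in CUT&Tag-only domains. Capitals mark the 9 letters and a TATAAA or TATATA downstream of them. Sequences run 5′ to 3′ on the strand given, in TAIR10 coordinates, and were read from the RefSeq copy of this genome.
U2.14 (chr1:4842182-4842281, plus strand): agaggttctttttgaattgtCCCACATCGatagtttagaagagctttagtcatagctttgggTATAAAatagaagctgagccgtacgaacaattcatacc
U1.7 (chr3:1657664-1657763, plus strand): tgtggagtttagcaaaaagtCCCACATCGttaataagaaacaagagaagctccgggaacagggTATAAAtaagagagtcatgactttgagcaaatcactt
U4.6 (chr1:4007019-4007118, minus strand): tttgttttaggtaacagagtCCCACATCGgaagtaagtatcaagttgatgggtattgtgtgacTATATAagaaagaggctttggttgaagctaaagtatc
U5.5 (chr1:8525212-8525311, minus strand): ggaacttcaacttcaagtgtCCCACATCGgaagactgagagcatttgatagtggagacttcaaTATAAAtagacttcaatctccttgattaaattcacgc
U6.5 (chr4:15965240-15965339, minus strand): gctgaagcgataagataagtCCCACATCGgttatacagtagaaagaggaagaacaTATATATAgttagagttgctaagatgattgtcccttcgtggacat
U6.6 (chr4:16754747-16754846, plus strand): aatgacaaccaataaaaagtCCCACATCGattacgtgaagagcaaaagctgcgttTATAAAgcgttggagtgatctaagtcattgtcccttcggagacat
AT7SL-1 locus (chr4:1319170-1319269, minus strand): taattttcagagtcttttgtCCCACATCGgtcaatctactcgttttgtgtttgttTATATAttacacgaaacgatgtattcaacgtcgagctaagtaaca
U3B locus (chr5:21888208-21888307, plus strand): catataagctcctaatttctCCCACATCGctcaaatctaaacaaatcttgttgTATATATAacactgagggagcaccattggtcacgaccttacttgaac
domain that touches no gene (chr3:9225978-9226077, minus strand): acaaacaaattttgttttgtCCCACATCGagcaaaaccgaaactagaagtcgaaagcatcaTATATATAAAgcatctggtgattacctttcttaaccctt
In U1.7, U4.6 and U5.5, 34 bases lay between the 9 letters and the TATA letters, and 33 in U2.14. In U6.5 and U6.6 there were 26. The AT7SL-1 locus, which RefSeq describes as a signal recognition particle RNA gene, had 26 on the strand opposite to the annotated gene model AT4G02970. The U3B locus, a small nucleolar RNA gene, had 24, with the 9 letters downstream of the annotated gene start and not before it. The domain that touches no gene had 32. The second set is the 200 bases before the start of the protein-coding genes ASY1, ASY3 and CBF3, whose starts lie in CUT&Tag-only domains, with TATAAA in capitals where it occurred.
ASY1 (chr1:25243838-25244037, minus strand): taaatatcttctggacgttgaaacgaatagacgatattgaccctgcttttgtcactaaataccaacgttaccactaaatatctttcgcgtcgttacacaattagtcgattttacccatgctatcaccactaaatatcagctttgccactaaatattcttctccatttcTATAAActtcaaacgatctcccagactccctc
ASY3 (chr2:19304272-19304471, minus strand): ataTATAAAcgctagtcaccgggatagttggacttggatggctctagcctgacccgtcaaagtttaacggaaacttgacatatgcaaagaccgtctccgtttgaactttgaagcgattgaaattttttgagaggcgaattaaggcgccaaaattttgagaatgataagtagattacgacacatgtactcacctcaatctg
CBF3 (chr4:13019401-13019600, minus strand): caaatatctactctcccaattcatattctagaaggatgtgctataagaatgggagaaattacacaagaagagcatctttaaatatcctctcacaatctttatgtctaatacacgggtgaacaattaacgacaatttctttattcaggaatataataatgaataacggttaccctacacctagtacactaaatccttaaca

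CUT&Tag-only domains were spread over the chromosomes like the other CUT&Tag domains. There were 240, 133, 176, 134 and 181 on chromosomes 1 to 5, between 7.45% and 8.34% of the replicate 1 domains of a chromosome. In 100 kb bins with at most 10 protein-coding gene starts, a measure of the gene-poor regions around centromeres, lay 10 of them (1.16%), against 1.17% of shared domains. Of these 10, 9 had a domain in another PHILO library, against 20.6% of all CUT&Tag-only domains and 91.8% of all CUT&Tag replicate 1 domains. Without the domains seen in any of the 26 ChIP lists, the share in gene-poor bins was 0.146%. These bins are 14.7% of all bins. As a further comparison, 1328 domains of the first 10M library that also occurred in the second 10M library and both eChIP libraries but had no CUT&Tag domain are called missed by CUT&Tag. Of these, 8.36% lay in gene-poor bins.

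CUT&Tag-only domains held a gene start less often than shared domains and lay off genes more often. An annotated gene start fell in 351 of the 864, or 40.6% (95% exact interval 37.3 to 44.0), against 91.1% of shared domains and 33.3% of domains missed by CUT&Tag. Where ChIP domains were allowed to cover up to 50% of a domain, 3286 domains qualified and 78.2% of them held a start, so this share depends on how strictly ChIP is shut out. For protein-coding genes alone the shares were 29.98%, 89.0% and 30.3%. Another 257 domains (29.7%) touched a gene without holding a start, and 256 (29.6%) touched no annotated gene at all. Only 0.778% of shared domains and 1.13% of domains missed by CUT&Tag touched no gene. Of the 129 replicate 1 domains with neither partner, 38.0% touched no gene and 27.9% held a gene start. Both traits were thus not particular to domains found in both CUT&Tag libraries. Intervals here cover counting error only, since domains of one library are not replicates, and no test was run between these sets because their calls chose them.

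The position along the gene differed between the sets. The centre of a CUT&Tag-only domain lay upstream of the nearest protein-coding gene start in 563 cases (65.2%), against 33.3% of shared domains and 5.57% of domains missed by CUT&Tag. The median signed distance was -327.5 bp for CUT&Tag-only domains, where minus is upstream, +192 bp for shared domains and +403 bp for domains missed by CUT&Tag. The median distance without sign was 1417.5 bp, 400 bp and 417 bp in the same sets. Within 1 kb upstream lay 266 CUT&Tag-only domains (30.8%), and 237 (27.4%) lay 1 to 3 kb upstream. The first 1 kb downstream of the start, the usual place of H3K9ac, held 83 of them (9.61%), against 53.6% of shared domains and 89.8% of domains missed by CUT&Tag. Thus domains seen only by CUT&Tag lay mostly upstream of the start, and domains missed by CUT&Tag lay mostly downstream. The rule fixes part of this contrast, since it leaves out any domain that overlaps a ChIP domain. The share upstream was not set against the chromosomes in general. Of the 129 replicate 1 domains with neither partner, 69.0% lay upstream. A smaller group of CUT&Tag-only domains lay 1 to 3 kb downstream (152, or 17.59%). A protein-coding gene end without a start was held by 223 CUT&Tag-only domains (25.8%), against 4.06% of shared domains. That contrast also counts the lack of a start, which was more common in CUT&Tag-only domains. With or without a start, a protein-coding gene end was held by 307 CUT&Tag-only domains (35.53%), against 52.03% of shared domains.

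**Figure D1:**
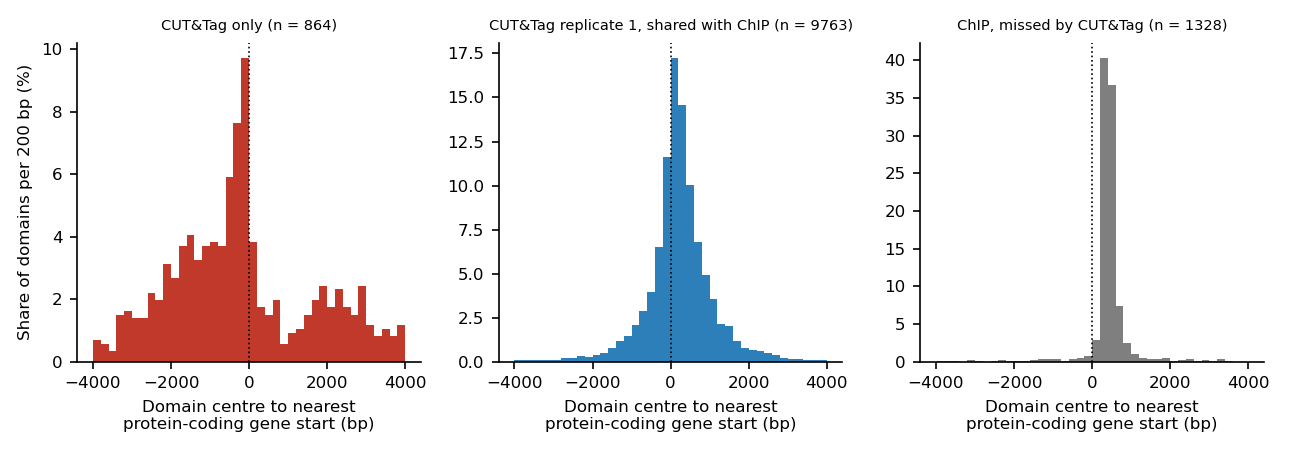
Distance in bp of domain centres to the nearest protein-coding gene start (minus is upstream), as the share of domains in each 200 bp step, with the domains beyond 4 kb not drawn and a separate vertical scale in each panel. CUT&Tag-only domains peak just upstream of the start, with a median of -327.5 bp and a second broad rise around 2 kb downstream. Shared domains and domains missed by CUT&Tag peak downstream.

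Domains that touched no gene were AT-rich and mostly upstream of their nearest protein-coding gene start. Of these 256, 207 lay upstream of their nearest protein-coding gene start, at a median distance of 2047.5 bp without sign, 40 lay within 1 kb and 12 farther than 5 kb. Their median GC was 32.3% and their median log2 fold change over IgG was 1.33. Neither the position nor the GC was set against gene-free DNA in general. Such DNA lies downstream of its nearest start only where a whole gene stands between. The nearest start lay in a domain of the 10M or eChIP lists for 75 (29.3%) and in a CUT&Tag replicate 1 domain for 124. Over all 864 CUT&Tag-only domains, the nearest protein-coding start lay in a ChIP domain for 163 (18.9%), against 57.3% of shared domains. The rule fixes part of this contrast, since a start inside a CUT&Tag-only domain cannot lie in a ChIP domain of the rule. In a replicate 1 domain lay the nearest start for 515 (59.6%), which includes starts held by the CUT&Tag-only domain itself.

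The domains were short and AT-rich. Their median width was 1000 bp (quartiles 600 and 1400, range 200 to 8800), against 1800 bp for shared domains and 800 bp for domains missed by CUT&Tag. Their median GC was 34.0% (quartiles 31.75 and 36.75), against 37.2% and 38.5% in those sets. GC under 30% was found in 82 of them (9.49%) and in 1.11% of shared domains. In the central 200 bp the medians were 34.5%, 37.5% and 38.5%, and the median over all 200 bp bins of the chromosomes was 36.5%. Among domains of 600 to 1400 bp, 500 CUT&Tag-only domains had a median GC of 34.4% and held a gene start in 37.2%. The 3665 shared domains of that width had a median GC of 38.0% and held a start in 85.8%. The 129 replicate 1 domains with neither partner were also short and AT-rich, with a median width of 800 bp and a median GC of 32.5%. Repeated sequence was rare in CUT&Tag-only domains. On average 1.46% of their 50-base words occurred more than once on the chromosomes, against 1.103% in shared domains and 6.05% along all 5 chromosomes, and 3 domains exceeded 50%.

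ChIPCount, the deposited number of CUT&Tag reads in a domain, was low in absolute terms. The median was 61 reads (quartiles 47 and 81, range 24 to 875) in CUT&Tag-only domains, against 121 in shared domains. Per kb of domain the sets lay closer, with medians of 68.3 reads in CUT&Tag-only and 71.5 in shared domains. The IgG control had a median of 70 reads in CUT&Tag-only domains and 137 in shared domains, or 76.4 and 75.7 per kb. The deposited log2 fold change over IgG, which also divides by library size, had a median of 1.31 (range 0.31 to 3.14) in CUT&Tag-only domains and 1.41 in shared domains. Thus in replicate 1 CUT&Tag-only domains were enriched slightly less than shared ones, with overlapping quartiles of 0.97 to 1.65 against 1.13 to 1.69. Among domains of 600 to 1400 bp, the median log2 fold changes were 1.33 and 1.46, with 68.3 and 74 reads per kb. The same IgG library was the control of all 28 lists. The methods of the study describe IgG for the ChIP procedures and not for CUT&Tag, so a CUT&Tag background was not used here.

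**Figure D2:**
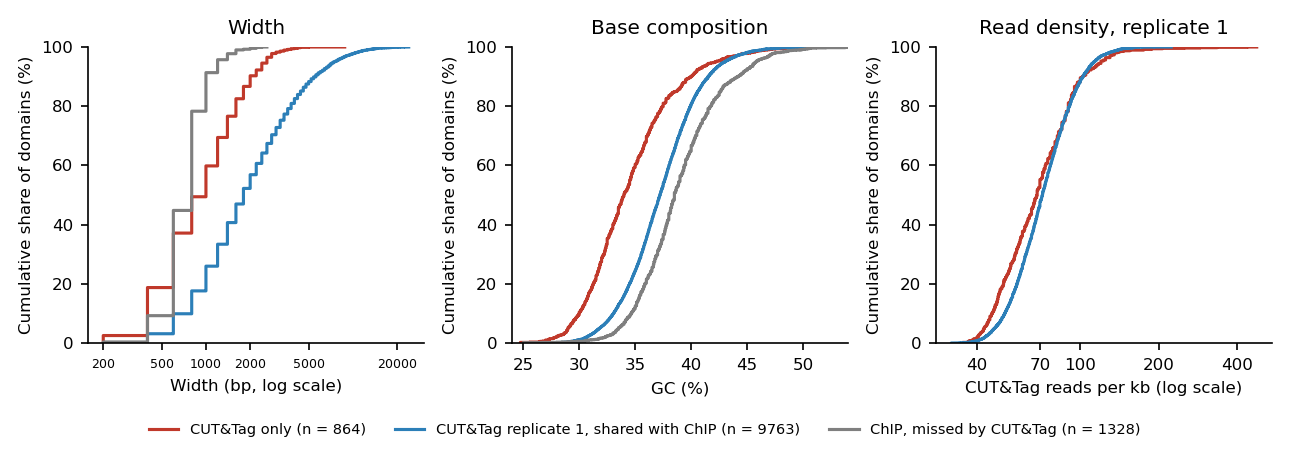
Cumulative share of domains by width in bp (log axis), GC in percent and, for both CUT&Tag sets, CUT&Tag replicate 1 reads per kb (log axis). The curve of the 864 CUT&Tag-only domains lies left of the shared domains in width and GC, with medians of 1000 bp against 1800 bp and of 34.0% against 37.2%, while the read densities nearly coincide, with medians of 68.3 reads per kb in CUT&Tag-only and 71.5 in shared domains.

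The overlapping domains of the second CUT&Tag library had lower fold changes, in CUT&Tag-only and in shared regions alike. The overlapping replicate 2 domain had a median log2 fold change of 1.09 (range 0.24 to 2.88) and a median width of 1600 bp. For the 9657 shared domains with a replicate 2 partner, the medians were 1.41 in replicate 1 and 1.27 in replicate 2. Across the 864 pairs, the log2 fold changes of both replicates had a Pearson correlation of 0.51, and across shared domains of 0.63. These are descriptions, since both lists chose the domains and share the IgG control. In both replicates, 436 CUT&Tag-only domains (50.5%) reached a log2 fold change of at least 1, against 73.1% of shared domains, and 11 reached at least 2. The largest false discovery rate (FDR) of a CUT&Tag-only domain was 0.0312 and the median 3.61e-10. Replicate 2 domains were wider, and in 351 cases (40.6%) the replicate 2 partner itself reached a ChIP domain. For these the partner had a median width of 3800 bp, and the CUT&Tag-only domain lay a median of 200 bp from the nearest ChIP domain. The other 513 had partners with a median width of 1000 bp and lay a median of 1600 bp away.

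**Figure D3:**
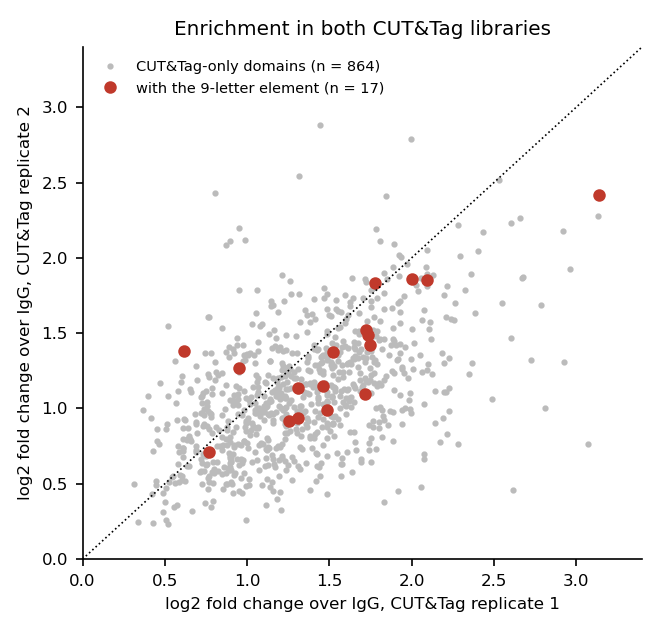
Deposited log2 fold change over IgG of each CUT&Tag-only domain in replicate 1 (horizontal) and of its overlapping domain in replicate 2 (vertical), with the line of equal values dotted. Most of the 864 grey points lie below the line, with medians of 1.31 in replicate 1 and 1.09 in replicate 2. The 17 domains with CCCACATCG in red span nearly the whole range.

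Some CUT&Tag-only domains were edges of regions that ChIP also saw. Directly beside a ChIP domain of the rule, with no bp between, lay 173 (20.0%), 233 lay within 200 bp and 490 at least 1000 bp away. The median gap was 1200 bp, and 12 lay more than 10 kb away. Those touching a ChIP domain held a gene start in 63.0% and touched no gene in 4.05%. Those at least 1000 bp away held a start in 37.3% and touched no gene in 39.6%, with a median log2 fold change of 1.36, against 1.23 for the touching ones. Just outside the rule, 612 replicate 1 domains overlapped ChIP domains by at most 200 bp, with a median width of 600 bp and a median log2 fold change of 1.56. Just inside it, the 173 touching domains had a median width of 800 bp.

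The highest log2 fold changes over IgG in both replicates were found in narrow domains. Both values divide by the same IgG library, so a low IgG count raises both and they are not independent. The part of low IgG counts in the ranking below was not tested. Ranked by the smaller of both log2 fold changes, the first lay in the body of AT4G39280 (chr4:18281201-18281600). It held 35 CUT&Tag and 17 IgG reads in replicate 1 and 76 and 17 in replicate 2, with log2 fold changes of 2.53 and 2.52. The second (chr3:9225801-9226200) touched no gene and is the one printed above with the snRNA-type element. It held 47 CUT&Tag and 15 IgG reads in replicate 1 (log2 fold change 3.14) and 100 and 24 in replicate 2 (2.42). It had a domain in 1 other PHILO library, 0.5M replicate 1. The third lay in the lncRNA gene AT1G07017 (chr1:14196201-14196600), 29400 bp from the nearest ChIP domain of the rule. It had a domain in 3 other PHILO libraries, 500K replicate 2 and both 20K libraries. It held 75 CUT&Tag and 24 IgG reads in replicate 1 (3.13) and 91 and 24 in replicate 2 (2.28). The next 2 also touched no gene, at chr5:8529401-8529800 with log2 fold changes of 2.66 and 2.26 and at chr2:499601-500000 with 2.60 and 2.23. The remaining domains among the first 10 lay in the body of the defensin-like gene AT5G60553 (2.92 and 2.18) and of SS1, a starch synthase (2.09 and 2.05), at the starts of ASY1 and ASY3, and at the misc_RNA gene AT1G07577 (2.403 and 2.05). Of these 10, 9 were 400 bp wide and 1 was 200 bp wide. The AT5G60553 region also had a domain in both 20K libraries.

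ASY1 and ASY3, which encode proteins of the meiotic chromosome axis, held the highest-ranked protein-coding gene starts. The ASY1 domain (chr1:25243801-25244200) had 52 CUT&Tag and 30 IgG reads in replicate 1 and 109 and 30 in replicate 2, with log2 fold changes of 2.28 and 2.22. The ASY3 domain (chr2:19304201-19304600), which also holds the start of the lncRNA gene AT2G09770, had 52 and 27 reads in replicate 1 and 95 and 27 in replicate 2, with 2.43 and 2.17. Neither had a domain in any other PHILO library, and the nearest ChIP domains were 4400 and 5400 bp away. The next protein-coding starts by rank were those of AT5G01445 (1.97 and 1.96), of MYB3R-4, a Myb factor of the cell cycle (2.09 and 1.94), and of NAC011, a member of the NAC transcription factor family (1.94 and 2.00). The further domains without a gene lay at chr4:7113801-7114200 (1.89 and 2.09) and chr1:55201-55800 (1.89 and 1.94).

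The 5 widest domains covered a range of enrichment. The widest (chr3:22513201-22522000, 8800 bp) ran over AT3G60920, the pseudogenes AT3G60930 and AT3G60935 and AT3G60940, with 629 CUT&Tag and 625 IgG reads in replicate 1 and log2 fold changes of 1.50 and 1.62. A 5000 bp domain over 4 transcribed pseudogenes (chr3:13536601-13541600) held 875 CUT&Tag and 572 IgG reads in replicate 1 (2.102, and 1.297 in replicate 2). It lay 42800 bp from a ChIP domain of the rule and had a domain in 6 other PHILO libraries. The others were at BGLU46, a beta-glucosidase gene (4400 bp, 1.29 and 1.01), at AT1G06148 (4200 bp, 0.77 and 0.71) and at BGAL12, a beta-galactosidase gene (4200 bp, 0.79 and 0.58).

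Of all annotated gene classes with at least 79 genes, snRNA genes had the largest share of starts in CUT&Tag-only domains. These were 12 of 82 snRNA genes (14.6%), against 419 of 37899 genes of all kinds (1.11%). A further 35 snRNA starts lay in shared domains, and 19 of the 82 lay in a ChIP domain. tRNA genes followed with 25 of 625 (4.00%), of which 4 were for glycine and 3 each for aspartate, isoleucine and valine, and then ncRNA genes with 7 of 221 (3.17%) and lncRNA genes with 68 of 3480 (1.95%). Protein-coding genes reached 279 of 27444 (1.02%), and pseudogenes 5 of 3917 (0.13%). Small nucleolar RNA genes contrasted with snRNA genes, with 1 of 287 starts in a CUT&Tag-only domain and 235 in shared domains. snRNA copies are similar to each other, and reads from identical copies may have been placed at the wrong copy.

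**Figure D4:**
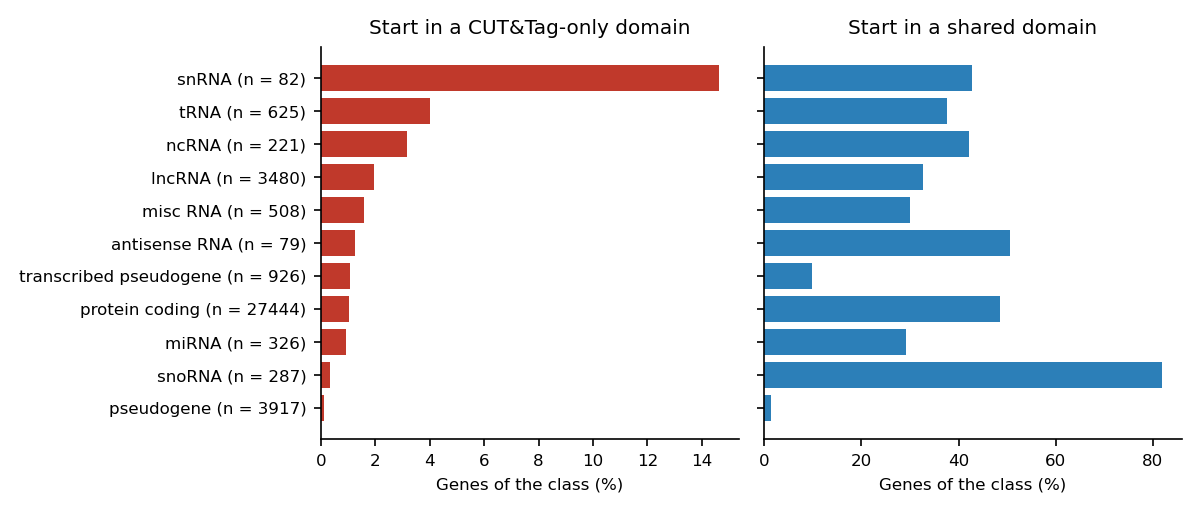
Share of the annotated genes of each class (percent, both axes from 0, with different ends) whose start lies in a CUT&Tag-only domain (left) or in a shared domain (right), for classes of at least 79 genes. The snRNA bar is the longest on the left, with 12 of 82 genes, while small nucleolar RNA genes are lowest but for pseudogenes on the left and highest on the right.

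The 12 snRNA starts lay in 10 CUT&Tag-only domains, none of which held a protein-coding gene start. U2.14 (chr1:4842001-4842800) had 90 CUT&Tag and 63 IgG reads in replicate 1 and 198 and 70 in replicate 2, with log2 fold changes of 2.00 and 1.86. U1.7 (chr3:1656601-1658400) had 170 and 112 reads in replicate 1 and 380 and 135 in replicate 2, with 2.09 and 1.85. U2.9 followed with log2 fold changes of 1.79 and 1.73. U1.10 and U4.6 shared a domain with 1.75 and 1.42, and U6.5 had 1.52 and 1.37. U1.6 had 1.46 and 1.15, but 51.85% of the 50-base words of its domain recur elsewhere on the chromosomes. U5.5 had 1.31 and 1.13, U6.6 1.31 and 0.94, U4.8 and U1.9 together 1.26 and 0.91, and U2.6 0.62 and 1.38. The median in replicate 1 was 1.49. Of the 10 domains, 1, that of U5.5, had a domain in another PHILO library, against 20.6% of all CUT&Tag-only domains. The domains of the 25 tRNA genes ranged between 0.72 and 2.20 in replicate 1, and 10 of them also held a protein-coding start.

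The 9 letters of the upstream element were searched on both strands after the snRNA genes had been seen. They occurred in 17 CUT&Tag-only domains at 18 sites, and at all 18 a TATAAA or TATATA followed within 40 bases on the same strand. The density was 18.7 sites per Mb in CUT&Tag-only domains, 4.35 in shared domains, 2.93 in domains missed by CUT&Tag and 3.93 along the chromosomes. Since 9 of the 17 domains held an snRNA start, the first value counts in part the genes that prompted the search. Of 468 sites on the chromosomes, 196 had the TATA letters, and 18 of these (9.18%) lay in CUT&Tag-only domains, 46 in shared domains and 17 in ChIP domains. Of the 272 sites without TATA letters, 0 lay in CUT&Tag-only domains, 66 in shared domains and 72 in ChIP domains. CUT&Tag-only domains are 0.808% of the chromosomes. At 11 of the 18 sites, 32 to 34 bases separated the element from the TATA letters, and at the other 7 sites 24 to 26 bases did, 26 being the spacing of both U6 genes printed above.

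Of these 17 domains, 9 held an snRNA start and 8 did not. Besides the gene-free domain of rank 2, those 8 were at AT7SL-1 (log2 fold changes 1.78 and 1.83), U3B (1.72 and 1.52), the lncRNA gene AT5G07745 (1.74 and 1.49), PTAC15, CRK41, AT3G55640 and AT1G06148. Within 100 bases before the annotated start, the 9 letters were found in 9 of the 12 snRNA genes in CUT&Tag-only domains, in 17 of the 35 in shared domains and in 3 of the 35 without a CUT&Tag domain. They were found before 9 of 27444 protein-coding genes (0.0328%). A match of letters is a description, not evidence that a factor binds there.

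Other promoter motifs, searched on both strands in the central 200 bp, were unevenly spread. TATAAA occurred in 33.8% of CUT&Tag-only domains, against 21.9% of shared domains, 12.7% of domains missed by CUT&Tag and 25.5% of all 200 bp bins. The G-box CACGTG occurred in 8.56%, against 4.03%, 1.205% and 2.19% in the same order. The letters GGCCCA, part of the site II element recognised by TCP factors, occurred in 12.2%, against 5.62%, 0.678% and 3.05%. The telo-box AAACCCTA was less common, with 1.85%, against 5.53%, 9.19% and 2.62%. GAGAGA, which overlaps with the longer CTCTCTCT, occurred in 16.8%, against 26.2%, 25.8% and 17.1%, and CTCTCTCT in 4.51%, against 6.65%, 4.37% and 3.04%. The sets differ in base composition, with AT-rich letters likelier in AT-rich DNA, and the part of GC content in these shares was not tested.

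Gene families are set against the 1.02% of all protein-coding genes whose start lay in a CUT&Tag-only domain. With 1 to 4 starts each, no family was tested against that share. There were 3 of 72 WRKY genes (4.17%), 1 of 26 ERF genes (3.85%), 3 of 101 peroxidase genes (2.97%), 3 of 135 bHLH genes, 3 of 180 MYB genes and 4 of 248 cytochrome P450 genes. There were 3 of 653 F-box genes, 1 of 194 disease resistance genes, 1 of 175 receptor-like kinase genes, 1 of 145 UDP-glycosyltransferase genes and 1 of 120 MADS genes. None of 113 defensin-like genes, 82 homeobox genes and 66 transposable element genes had its start in such a domain. Of 326 microRNA genes, 3 did (0.92%), near the 1.11% of all genes, and 2 of their 3 domains also held a protein-coding start. These genes were MIR5655, MIR164a, whose product targets NAC mRNAs of the CUC type, and MIR157a, whose product targets SPL mRNAs. Their domains had log2 fold changes of 1.51 and 1.16, 0.62 and 0.92, and 0.76 and 0.47.

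The fixed gene lists are short, and with 1.11% of all gene starts in CUT&Tag-only domains a count of 0 is near the background for each of them. All 12 photosynthesis genes of a fixed list had their starts in shared domains. Of 8 cold and drought genes, 5 lay in shared domains, 2 in no CUT&Tag replicate 1 domain and 1, CBF3 (DREB1A), in a CUT&Tag-only domain. CBF3 encodes a transcription factor of the cold response, and its neighbours CBF1 and CBF2 were in shared domains. The CBF3 domain (chr4:13019201-13019600) had 47 CUT&Tag and 37 IgG reads in replicate 1, with log2 fold changes of 1.83 and 1.76. It touched a ChIP domain directly and had a domain in 2 other PHILO libraries. Of 6 heat shock genes, 3 lay in shared domains and 0 in CUT&Tag-only domains. In the marker lists for other organs, starts in CUT&Tag-only domains numbered 0 of 16 seed, 0 of 14 flower, 0 of 11 pollen and gamete, 0 of 10 root and 0 of 8 meristem genes. Of these, 1 seed, 1 pollen and 2 root genes had starts in shared domains.

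The other PHILO libraries, which the rule did not use, were then checked for these regions. A domain in at least 1 of these 22 libraries overlapped 178 CUT&Tag-only domains (20.6%), against 91.8% of all CUT&Tag replicate 1 domains. In none of them were 686 found, 88 were found in a single library, 22 in 5 or more, and the maximum was 10 libraries. In at least 1 of the 14 depth and cycle libraries other than 10M, 72 were found (8.33%), against 89.1% of all replicate 1 domains. In both libraries of a group, 10 were found for 1 mg tissue (1.16%), against 85.8% of all replicate 1 domains, 20 for 20K nuclei (2.31%), against 68.3%, 17 for 100K nuclei (1.97%), against 85.8%, and 13 for 500K nuclei (1.50%), against 84.9%. The recovered domains lay a median of 200 bp from a ChIP domain of the rule and 82 of the 178 touched one, whereas the unrecovered ones lay a median of 1200 bp away. A gene start was held by 52.2% of the recovered and 37.6% of the unrecovered domains.

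Recovery was higher in the groups made from 1 mg of tissue or from counted nuclei, called low-input here. In the libraries from 1 mg of tissue 29 and 29 of the 864 were found, in 20K nuclei 53 and 44, in 100K nuclei 27 and 34, and in 500K nuclei 27 and 39. In the depth series 9 and 4 were found at 0.5M, 9 and 6 at 1M, 7 and 9 at 2M, and 7 and 9 at 5M. In the cycle series 12 and 6 were found at 10 cycles, 12 and 11 at 12 cycles, and 7 and 9 at 14 cycles. All 8 low-input libraries were above all 14 depth and cycle libraries.

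**Figure D5:**
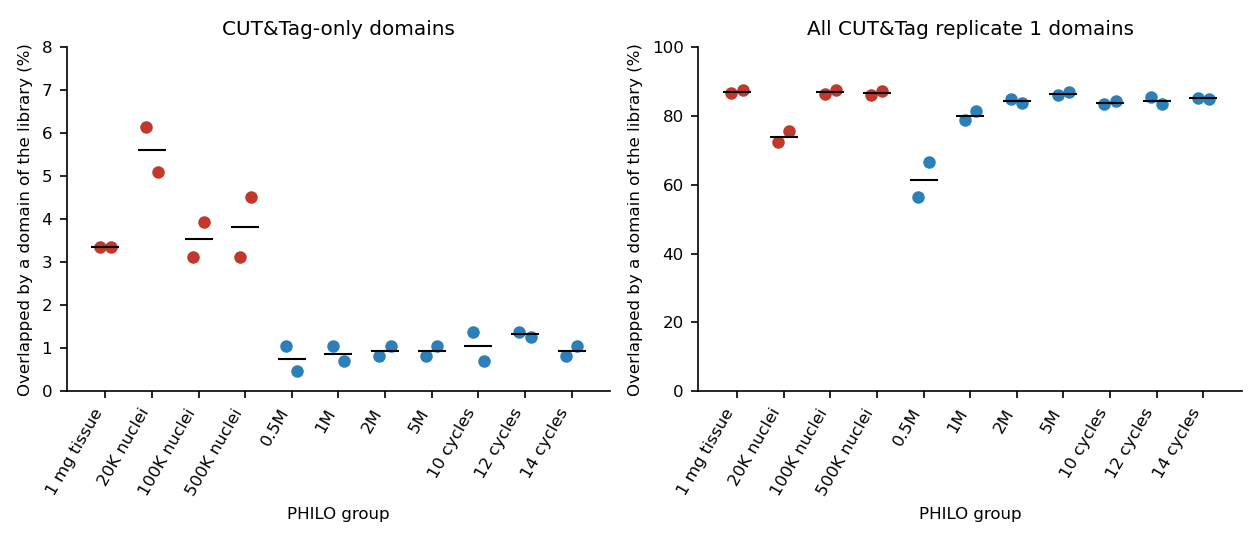
Share of CUT&Tag-only domains (left, axis to 8%) and of all CUT&Tag replicate 1 domains (right, axis to 100%) overlapped by a domain of each PHILO library, with 1 point per replicate and a bar at the mean of 2, low-input groups in red and depth and cycle groups in blue. On the left the low-input libraries find 27 to 53 of 864 and the others 4 to 12. On the right the groups overlap, and 20K nuclei lie below most others.

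The means were 3.36% (both libraries equal) for 1 mg tissue, 5.61% ± 0.74 for 20K nuclei, 3.53% ± 0.57 for 100K nuclei and 3.82% ± 0.98 for 500K nuclei (SD, n = 2 each), against 0.967% ± 0.271 (SD, n = 14) in the depth and cycle libraries. The differences were 2.39, 4.65, 2.56 and 2.85 percentage points, each with a two-sided exact permutation p of 0.00833, the smallest that 2 against 14 libraries can give, and with the same value after Benjamini-Hochberg adjustment over 4 differences. Over all CUT&Tag replicate 1 domains, recovery was 87.0% for 1 mg tissue, 74.0% for 20K nuclei, 86.9% for 100K nuclei and 86.6% for 500K nuclei, against 80.8% in the depth and cycle libraries. Thus the 20K libraries, which found the most CUT&Tag-only domains, found fewer replicate 1 domains in all than the mean of the other libraries. Recovery of CUT&Tag-only domains was 3.47 times that of the depth and cycle libraries for 1 mg tissue, 5.80 times for 20K, 3.65 times for 100K and 3.95 times for 500K nuclei. The rule took out what the 10M libraries saw, which belong to the depth series, and the part of this in the low recovery of the depth and cycle libraries was not tested. Earlier results of these data had shown the depth and cycle libraries as a block apart from these groups, so the p-values concern a split known beforehand. Depth recovered from the deposited values was 56.7% to 78.1% of the 10M mean in the 1 mg, 100K and 500K libraries. It was 3.24% to 53.9% in the depth and cycle libraries. The labels name no batch, so input and any batch cannot be told apart. In the 1 mg, 100K and 500K libraries, depth cannot be told apart from them either. In the 20K libraries depth was 45.8% to 49.3%, and its part in their recovery was not tested.

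Along the label series no relation with recovery passed the threshold. Spearman's rho with nuclei number was -0.67 over 6 libraries (exact permutation p 0.222, adjusted over 3 relations 0.667), with Pearson's r on log10 of the number of -0.68 (exact permutation p 0.200, adjusted 0.600) and -0.91 without the 500K libraries. With depth over the 8 libraries from 0.5M to 5M, rho was 0.24 (exact permutation p 0.590, adjusted 0.711) and r 0.31 (exact permutation p 0.467, adjusted 0.700), and r was 0.32 without the 5M libraries. With cycle number over 6 libraries, rho was -0.18 (exact permutation p 0.711, adjusted 0.711) and r -0.14 (exact permutation p 0.822, adjusted 0.822), and r was -0.91 without the 10-cycle libraries. Each r of -0.91 compares only 2 label values with 2 libraries each and was not tested, so it shows no trend. Between 20K and 500K nuclei, recovery differed by 1.79 points with an exact permutation p of 0.3333, the smallest that 2 against 2 can give.

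The domains found most often by other PHILO libraries mostly bordered ChIP domains. The domain at chr3:7353601-7354000, over the pseudogene AT3G20975 and the lncRNA gene AT3G20978, had a domain in 10 of 22 libraries and log2 fold changes of 1.22 and 1.29. Domains in the body of AT4G03292 (chr4:1444401-1445200) and at the start of AT1G02080 (chr1:371801-373600) were each found in 8 libraries, and one at the start of AT3G61950 (chr3:22939201-22939600) in 7. All 4 touched a ChIP domain of the rule. The fifth, at the start of AT1G53870 (chr1:20111801-20112400), was found in 7 libraries and lay 2200 bp from a ChIP domain of the rule. All of its 50-base words recur elsewhere on the chromosomes.

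Across the libraries, the depth recovered from the deposited values ranged between 3.24% and 105% of the 10M mean. It was 33.9% and 74.2% in the CUT&Tag libraries, 45.8% to 49.3% in the 20K libraries, 56.7% to 78.1% in the other low-input libraries and 3.24% to 53.9% in the depth and cycle libraries other than 10M. The CUT&Tag domains nevertheless covered the most DNA, 27.1 and 34.2 Mb, against 10.6 to 23.7 Mb in the PHILO and eChIP libraries. Of the PHILO libraries nearest to CUT&Tag in depth, domains were found for 7 of 864 regions in 2M replicate 1, at 33.7% depth, and for 29 in 1 mg tissue replicate 1, at 72.2%. The same libraries overlapped 84.9% and 86.6% of all CUT&Tag replicate 1 domains. The part of depth in these counts was not tested. Reads in domains ranged between 207252 and 7244177 per library.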

How the data were processed

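H3K9ac was measured in 28 libraries of 10-day-old seedlings. The authors aligned reads to TAIR10 with Bowtie2 and called domains in each library separately with epic2 against an IgG control. The submitters' processing notes list this caller family as SICER 0.0.52, beside deepTools 3.5.2. Window, gap and duplicate settings are not given in the sources used here. All domain borders fell on a 200 bp grid. The authors deposited raw read counts (ChIPCount and the IgG count) for each domain. The deposited p-value and FDR come from the caller, and the deposited log2 fold change is the ChIP count over the IgG count, each divided by library size by the authors. The deposited score was not used. Of 58882 intervals present in at least 2 lists, 0 had more than 1 IgG count.

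Overlap meant at least 1 bp. Gene starts, biotypes and sequence came from RefSeq's TAIR10.1, whose nuclear chromosomes equal TAIR10 (37899 genes). The members and lists were chosen with earlier results of these data known. Named domains were the 10 ranked highest by the smaller CUT&Tag log2 fold change, the 5 highest with a protein-coding start, the 5 highest without a gene, the 5 widest, the 5 found by most other PHILO libraries, and up to 3 genes of each fixed list. snRNA genes and the 9-letter element were added after values were seen. Groups came from the sample titles. Recovery was compared over libraries by exact two-sided permutation in Python 3.11.15 with SciPy 1.17.1, tested on simulated data first. Exact binomial intervals (95%) cover counting error only.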

Additional observations from a re-analysis of the deposited data

How the results depend on the processing

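The number of CUT&Tag-only domains, 864, depended on the rule. It was 3286 where ChIP could cover up to 50% of a domain, 490 with no ChIP domain within 1000 bp, 437 at a CUT&Tag log2 fold change of at least 1, 354 at an FDR of at most 1e-10, and 513 where the replicate 2 domain also had to be free of ChIP, an alternative chosen after seeing the data. Under these settings the share with a gene start was 78.2% in the first, and it was 29.98% for protein-coding genes only and 54.6% for starts within 500 bp. Median width was 1600 bp in the first and 600 bp at the fold change limit. Median GC was 34.5% from CUT&Tag replicate 2, 35.3% with ChIP up to 50%, 35.2% at the fold change limit, 34.8% at the FDR limit and 34.5% in the central 200 bp. The median log2 fold change was 1.08 from replicate 2, 1.57 at the fold change limit and 1.65 at the FDR limit. With no domain in any of 26 ChIP lists, 0.146% lay in gene-poor bins.

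Subtracting the recovery of all replicate 1 domains gave rho -0.98 along the depth series (adjusted exact permutation p 0.00238) and differences of -3.83 for 1 mg tissue, -3.53 for 100K, -2.97 for 500K and 11.5 for 20K nuclei. These values say little about CUT&Tag-only domains, since their recovery ranged between 0.463% and 6.13% and that of all domains between 56.4% and 87.4%, which fixes the subtracted value almost alone.

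Leaving out 1 library at a time gave 897 to 993 domains, 39.0% to 41.8% with a gene start, a width of 1000 bp, GC of 33.8% to 34.2%, 1.09% to 1.51% in gene-poor bins, and a log2 fold change of 1.28 to 1.31. The Spearman correlation ranged between -0.09 and 0.52 for depth, -0.89 and -0.43 for nuclei, and -0.89 and 0.11 for cycles. Differences ranged between 2.35 and 2.42 for 1 mg tissue, 4.13 and 5.17 for 20K, 2.16 and 2.97 for 100K, and 2.16 and 3.55 for 500K nuclei. With 1 low-input library left, p cannot fall below 0.0667. With the replicate block, 20K minus 500K nuclei was 1.79 points (3.01 and 0.58 within replicates, exact permutation p 0.5, the smallest 2 pairs can give).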
